A study of Rattus norvegicus with 4 samples.

Results

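The histone genes of poly(A) libraries of S16 cells, an immortalized rat Schwann cell line, were described here. They were the 44 of 30708 listed genes whose symbol begins with Hist and a cluster number, with H2af, with H1f or with H3f3. The 32 genes with a Hist symbol were taken as clustered replication-dependent histone genes and the other 12 as variant histone genes. The data came from 2 unmodified populations of S16 cells, one at passage 9, which was the parent of cells later edited in the study, and one at passage 39. Neither population was edited or treated, and both were grown in standard medium with L-glutamine. Each population gave 2 libraries that the labels call technical replicates, so that there were 4 libraries and 1 population per passage. The value deposited for each gene and library was RPKM, in which reads are divided by the length of the gene in kilobases and by the library total in units of 1000000, so that it is a level per length. With 1 population per passage no test between passages has a replicate check, and no p-values were computed.

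Histones are the proteins around which DNA is wound. The core particle holds H2A, H2B, H3 and H4, and H1 is the linker histone. The replication-dependent genes lie in clusters, are switched on in S phase and make mRNAs that end in a stem-loop in place of a poly(A) tail, so that selection with oligo(dT) beads is known to lose most of them. The variant genes, such as those of H3.3 and H2A.Z, lie outside the clusters, are expressed through the cell cycle and make polyadenylated mRNAs, and H2afx is known to make mRNAs of both kinds. Some clustered genes are also known to make polyadenylated mRNAs. Copies of a clustered gene can be nearly identical, and by the study's methods only uniquely mapped reads of 50 bp were kept. If the RPKM values rest on those reads, reads that match several copies equally were in no value. The values of single clustered genes are thus uncertain.

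The library totals behind the RPKM values, recovered from the values themselves, lay between 34.2 and 41.4 M reads (M, 1000000). The histone genes together took between 0.0818% and 0.0877% of the total. The libraries fell into pairs by technical replicate number and not by passage. The labels were used as given. Whether they name the population of each library rightly was not tested, and the comparisons by passage and by technical replicate both rest on them. Of the 11025 genes that averaged 1 RPKM or more, 120 (1.09%) differed 2-fold or more on the log2(RPKM + 1) scale between second and first technical replicates, but 1 gene (0.00907%) did between the passages. All 10 Schwann cell markers were above 1 RPKM, whereas 1 of 5 neuron markers (Tubb3), 3 of 5 fibroblast markers (Pdgfra, Col1a1, Col3a1), 1 of 4 melanocyte markers (Pmel) and 1 of 4 macrophage markers (Cd68) were. The summed RPKM of the Schwann cell markers was 4603 and 4600 in the first and 3717 and 3673 in the second technical replicates. In the following, 4 values of a gene are those of technical replicates 1 and 2 of passage 9 and then of technical replicates 1 and 2 of passage 39, and an SD is over the means of the 2 populations. Each of these means averages technical replicates 1 and 2, so that the SD does not show the spread between them.

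Variant histone genes made up most of the summed RPKM of the listed histone genes. Their summed level was 529.5, 548.6, 522.6 and 557.0 RPKM, and that of the clustered genes 38.3, 43.2, 40.6 and 41.9 RPKM. The variant sum was thus between 12.7 and 13.8 times the clustered sum, and the ranges did not overlap. The clustered sum lacks genes of the clusters that were not listed, such as Hist1h3b. It may also lack reads that match several copies. The variant sum lacks variant genes that were not listed or that the symbol rule does not cover, such as Cenpa. How far this lowers either sum was not tested. The clustered genes made up 6.75%, 7.30%, 7.21% and 7.0% of the summed histone RPKM (mean 7.06%, SD over the 4 libraries 0.243). A gene was counted as detected where it averaged 1 RPKM or more, which held for 35.9% of all listed genes. It held for 8 of 32 clustered genes (25.0%) and for 7 of 12 variant genes (58.3%). The detected gene nearest to this limit was Hist1h1d, at 1.42 RPKM, and the nearest below it was Hist1h2ac, at 0.814 RPKM.

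**Figure D1:**
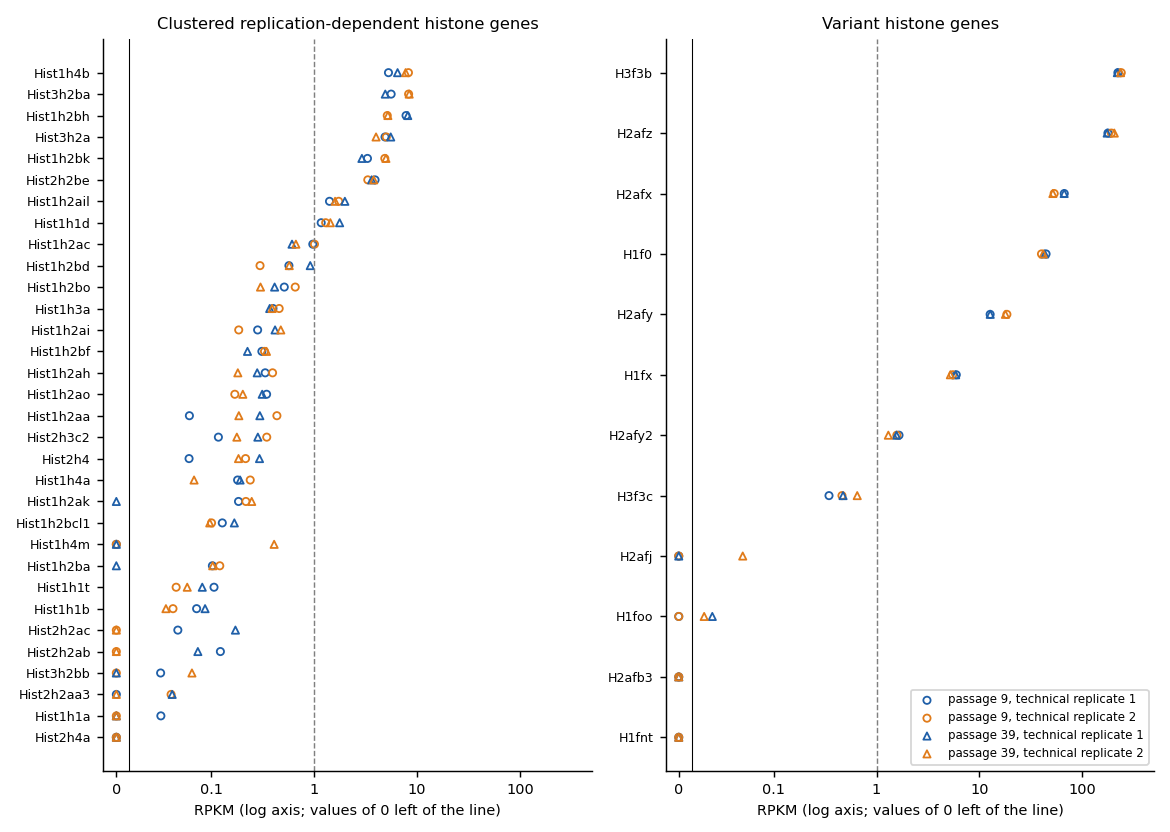
RPKM of each histone gene (log axis, with values of 0 placed left of the solid line) in the 4 libraries, for the 32 clustered genes on the left and the 12 variant genes on the right. Circles are passage 9, triangles passage 39, blue is technical replicate 1 and orange technical replicate 2, and the dashed line is at 1 RPKM. No clustered gene exceeded a mean of 6.93 RPKM, while H3f3b and H2afz were at means of 228 and 186 RPKM.

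Among the variants, the H3 gene H3f3b was highest. H3f3b encodes H3.3, which is laid down outside replication, and it was at 221, 238, 218 and 235 RPKM (mean 228 ± 2.22, SD, n = 2 populations), rank 167 of all listed genes. Its libraries rested on 12366 to 15936 reads, so that counting error was small. H3f3c, a pseudogene in the current RefSeq annotation, was at 0.346, 0.462, 0.473 and 0.650 RPKM. Of the 2 listed H3 variant genes only H3f3b was thus detected. The symbol H3f3a was not among the listed genes.

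Of the 6 H2A variant genes, 4 were detected. H2afz encodes H2A.Z, which sits at promoters and enhancers, and was at 177, 191, 174 and 204 RPKM (mean 186 ± 3.49, SD, n = 2). H2afx encodes H2A.X, the form that is phosphorylated at DNA breaks, and was at 66.6, 53.2, 66.5 and 51.6 RPKM. Both second technical replicates of H2afx lay below both first ones. H2afy, which encodes macroH2A1, a form with a large extra domain that is linked to silent chromatin, was at 12.7, 18.5, 12.7 and 17.9 RPKM, with both second technical replicates above both first ones. A split by technical replicate number was not particular to these genes. Over all genes above 1 RPKM, the 95% interval of the ratio of technical replicate 2 over 1 lay above 1 at both passages for 41.6% and below 1 for 21.6%. H2afy2, the gene of macroH2A2, was at 1.65, 1.57, 1.56 and 1.30 RPKM. The remaining H2A variants were near 0, since H2afj had 1 read in 1 library and H2afb3, a gene known from testis, was listed at 0 in all 4.

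H1f0, the gene of the linker histone of slowly or no longer dividing cells, was at 44.3, 40.0, 43.0 and 41.6 RPKM (mean 42.3 ± 0.121, SD, n = 2). H1fx, another replication-independent linker histone gene, was at 5.95, 5.50, 5.87 and 5.22 RPKM. The 4 libraries of each gene lay close together, with the second technical replicate below the first at both passages. The germ cell genes were near 0, with 2 reads in all for H1foo (oocyte) and a listed 0 in every library for H1fnt (sperm). H3f3b and H2afz alone gave between 75.1% and 78.7% of the summed RPKM of the variants.

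Among the clustered genes the H2B family was highest, with 4 of 10 genes detected. Hist3h2ba was at 5.60, 8.28, 4.91 and 8.38 RPKM (mean 6.79 ± 0.205, SD, n = 2), Hist1h2bh at 7.82, 5.13, 8.12 and 5.21 RPKM (mean 6.57 ± 0.134) and Hist1h2bk at 3.298, 4.86, 2.91 and 4.98 RPKM (mean 4.01 ± 0.0934). In each of these genes the libraries fell into non-overlapping pairs by technical replicate number, but Hist1h2bh was higher in the first and the others in the second. Such splits were common over all genes above 1 RPKM. The 95% interval of the ratio of technical replicate 2 over 1 lay above 1 at both passages for 41.6% of them and below 1 for 21.6%. Hist2h2be was at 3.91, 3.32, 3.62 and 3.79 RPKM (mean 3.66 ± 0.0656), and its pairs overlapped.

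Each of the other families had 1 or 2 detected genes or none. In H2A, Hist3h2a was at 4.89, 5.03, 5.55 and 3.997 RPKM and Hist1h2ail at 1.41, 1.73, 1.99 and 1.60 RPKM, as 2 of 11 genes. In H4, Hist1h4b was at 5.28, 8.25, 6.47 and 7.74 RPKM (mean 6.93 ± 0.241, SD, n = 2), the highest of all clustered genes and 1 of 5 in its family. Its rank among all listed genes was 7108. In H1, Hist1h1d was at 1.17, 1.30, 1.77 and 1.44 RPKM, as 1 of 4 genes, and neither of the 2 H3 genes was detected. The 6 highest clustered genes (Hist1h4b, Hist3h2ba, Hist1h2bh, Hist3h2a, Hist1h2bk, Hist2h2be) gave between 77.8% and 81.4% of the summed clustered RPKM.

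The other 24 clustered genes had a median of 0.166 RPKM and together 617 reads over the 4 libraries, or 9.35% of the 6599 clustered reads. The highest of them were Hist1h2ac at 0.971, 1.01, 0.610 and 0.665 RPKM, Hist1h2bd at 0.569, 0.298, 0.917 and 0.573 RPKM, Hist1h2bo at 0.513, 0.656, 0.413 and 0.302 RPKM and Hist1h3a at 0.398, 0.458, 0.370 and 0.391 RPKM. Between 0.10 and 0.35 RPKM on average were Hist1h2ai, Hist1h2bf, Hist1h2ah, Hist1h2ao, Hist1h2aa, Hist2h3c2, Hist2h4, Hist1h4a, Hist1h2ak, Hist1h2bcl1 and Hist1h4m. Below these were Hist1h2ba, Hist1h1t (both known from testis), Hist1h1b, Hist2h2ac, Hist2h2ab, Hist3h2bb, Hist2h2aa3 and Hist1h1a. Hist2h4a was listed at 0 in every library. In all, 9 clustered genes had fewer than 10 recovered reads over the 4 libraries, where the true number may be a multiple of the recovered one. A count of 0 allows up to 3 reads, which for a gene of 393 bp such as Hist1h2ak is between 0.184 and 0.223 RPKM, so levels of this size cannot be told from 0 in a single library.

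The contrast between the classes differed by family. In H3, the variant sum was between 296.8 and 429.0 times the clustered sum of 0.516, 0.805, 0.655 and 0.569 RPKM. In H1 it was between 25.2 and 36.4 times, and in H2A between 26.1 and 36.4 times, so that these families overlapped. The clustered sums were over the listed genes only, 2 in H3, 4 in H1 and 11 in H2A. Histone genes beside clustered ones on GRCr8, such as Hist1h3b and H1f2, were not among the 44 genes. These ratios thus depend on which genes of either class were listed. H2B and H4 had no variant gene by the rule. Their clustered genes summed to 22.3, 23.1, 21.3 and 23.8 RPKM for H2B and to 5.52, 8.70, 6.95 and 8.40 RPKM for H4.

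**Figure D2:**
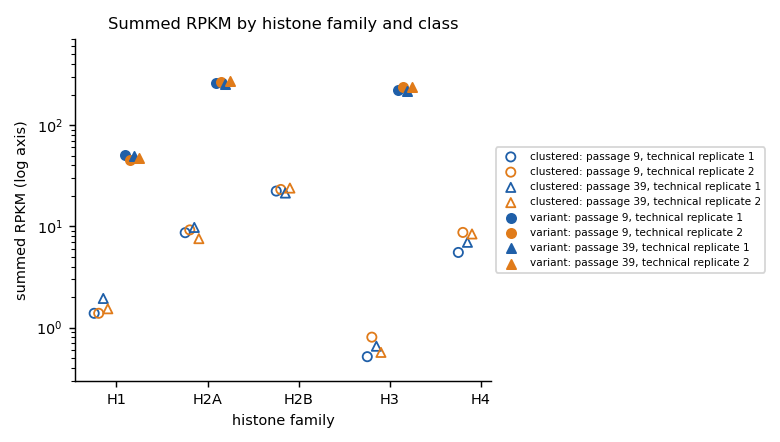
Summed RPKM (log axis) of the clustered genes (open symbols) and the variant genes (filled symbols) of each histone family in the 4 libraries, with circles for passage 9, triangles for passage 39, blue for technical replicate 1 and orange for technical replicate 2. The variant H3 sum lay between 218.9 and 238.8 RPKM in every library and the clustered H3 sum, over 2 listed genes, below 1 RPKM.

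Several clustered genes stand head to head, with starts at most 500 bp apart and transcribed away from each other. Of the 44 genes, 38 matched 1 gene of the RefSeq annotation of GRCr8 and 35 had a promoter sequence there. In that annotation 4 such pairs were found. In 2 pairs neither gene was detected, namely Hist1h2aa with Hist1h2ba, and Hist1h2bo with Hist1h2ai. In the other 2 pairs the genes were far apart in level. Hist2h2be and Hist2h2ac start 226 bp apart, and 1412 reads fell on the first and 4 on the second, with means of 3.66 and 0.0549 RPKM. Hist3h2a and Hist3h2bb start 218 bp apart, and had 1138 and 3 reads, with means of 4.86 and 0.0243 RPKM. The detected gene of each pair also had the longer gene model, at 2530 against 509 bp and at 1553 against 748 bp. RPKM divides the reads by the length of the model, so that the levels of these pairs depend on the models as well as on the reads.

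The 120 bases before the start of both genes of these 2 pairs are shown because they share the space between them, and those of H3f3b and H2afz because these were the highest variants. Sequences are from RefSeq on GRCr8, 5′ to 3′ on the strand of the gene. Capitals mark the letters of CCAAT, those of the core TATAAA and those of the octamer ATTTGCAT, on either strand. Motifs may overlap each other, and one that crosses the 5′ edge is shown in part.
Hist2h2be, chr2:186469332-186469451, plus strand: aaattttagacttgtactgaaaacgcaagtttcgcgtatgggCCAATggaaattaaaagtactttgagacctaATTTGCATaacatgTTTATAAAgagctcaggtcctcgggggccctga
Hist2h2ac, chr2:186469227-186469346, minus strand: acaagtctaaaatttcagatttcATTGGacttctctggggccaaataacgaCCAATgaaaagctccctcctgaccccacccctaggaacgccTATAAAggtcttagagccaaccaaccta
Hist3h2a, chr10:44233163-44233282, plus strand: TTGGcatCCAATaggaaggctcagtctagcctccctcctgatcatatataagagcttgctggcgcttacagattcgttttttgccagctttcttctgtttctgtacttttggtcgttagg
Hist3h2bb, chr10:44233066-44233185, minus strand: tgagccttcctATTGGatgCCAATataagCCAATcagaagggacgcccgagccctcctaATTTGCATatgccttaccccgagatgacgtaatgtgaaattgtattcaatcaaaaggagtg
H3f3b, chr10:101757637-101757756, minus strand: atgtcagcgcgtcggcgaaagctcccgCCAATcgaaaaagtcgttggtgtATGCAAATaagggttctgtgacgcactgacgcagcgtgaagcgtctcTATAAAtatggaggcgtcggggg
H2afz, chr2:229028975-229029094, plus strand: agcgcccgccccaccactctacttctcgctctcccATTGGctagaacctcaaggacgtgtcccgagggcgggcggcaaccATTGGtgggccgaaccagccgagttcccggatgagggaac

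CCAAT is the letters bound by NF-Y, TATAAA is the core of the TATA box, and the octamer is the element of H2B genes bound by OCT1. In the 250 bases before the start, CCAAT was found on either strand in 22 of 25 clustered genes (88.0%), 5 of 10 variant genes (50%) and 34.0% of all 33469 promoters. TATAAA was found in 14 of 25 clustered genes (56.0%), 1 of 10 variant genes (H3f3b) and 12.9% of all promoters. The octamer was found in 9 of 25 clustered genes (36.0%), among them 5 of 9 H2B genes, in 1 of 10 variant genes (H3f3b) and in 1.56% of all promoters. Of the clustered genes that were detected and those that were not, these letters were in 5 of 6 and 17 of 19 for CCAAT, 3 of 6 and 11 of 19 for TATAAA, and 3 of 6 and 6 of 19 for the octamer. Hist3h2bb, with 3 reads in all, held CCAAT and the octamer within the bases shown. A match of letters is a description and not a binding site. These windows include those of paired genes and thus overlap in part.

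The gene lengths behind the RPKM values were recovered for 31 of the 32 clustered and 10 of the 12 variant genes. They were between 119 and 2530 bp for the clustered genes (median 669 bp) and between 485 and 6356 bp for the variants (median 1240 bp), against a median of 2621 bp over the 11025 genes above 1 RPKM. The smallest length that gives whole reads was taken. For genes with few reads, such as Hist1h4m at 119 bp, the true length and number of reads may be multiples of those recovered. The 8 detected clustered genes had a median length of 805 bp and the other 23 one of 669 bp. Of the clustered genes longer than 600 bp, 6 of 19 were detected, and of those up to 600 bp, 2 of 12. For 7 of 36 genes the recovered length equalled the span of the gene on GRCr8, as for H1f0 (1861 bp), Hist3h2a (1553 bp) and Hist3h2ba (630 bp). It was shorter than that span for 18 genes, among them Hist1h4b (1296 against 4445 bp), the highest clustered gene. It was longer than that span for 11 genes, among them Hist1h3a (2365 against 524 bp), Hist1h1t (2493 against 745 bp) and H1fx (3528 against 1064 bp). The RPKM of every gene rests on gene models that are not given, and for these 11 genes the recovered length exceeded the whole span on GRCr8. How this moved their levels was not tested.

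**Figure D3:**
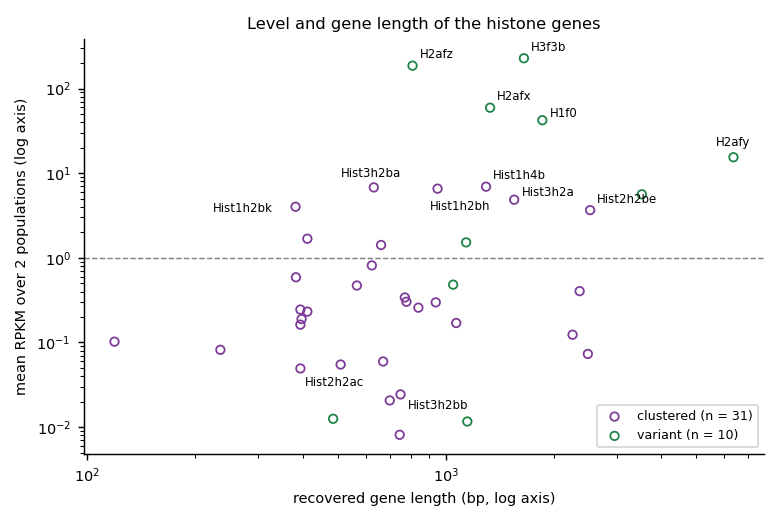
Mean RPKM over the 2 populations (log axis) against the recovered gene length in bp (log axis) for the 31 clustered genes (purple) and the 10 variant genes (green) with a recovered length, 1 point per gene, with the dashed line at 1 RPKM. Clustered genes above the line ranged from 381 bp (Hist1h2bk) to 2530 bp (Hist2h2be), and clustered genes below it covered most of the same range of lengths.

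Between technical replicates 2 and 1, no histone gene differed by 2-fold, where 1.09% of all genes did. None of the 15 detected genes was higher (2.22% of all genes) or lower (2.78%) by at least 1.5-fold at both passages on the log2(RPKM + 1) scale. Hist1h2bh was nearest, at -0.52 and -0.56, and passed the limit as lower under both other scalings, against genes of like length, and when 0.1 RPKM was the pseudocount. The summed clustered RPKM of technical replicate 2 was 1.13 times that of technical replicate 1 at passage 9 and 1.03 times at passage 39, and the variant sum 1.04 and 1.07 times. The sums of both classes were thus nearly level between the libraries, while single genes were not. For these, the ratio of RPKM was taken with its exact conditional 95% interval from the recovered reads, which covers counting error only and compares libraries. The reads carried no molecular identifiers, so that several can stem from 1 molecule.

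The interval lay above 1 at both passages for 6 of the 15 detected genes, where it did for 41.6% of all genes above 1 RPKM, and below 1 at both passages for 2, against 21.6% of all genes. Neither share shows the histone genes to stand apart. Higher in technical replicate 2 were Hist3h2ba, with ratios of 1.48 (1.18 to 1.85) at passage 9 and 1.71 (1.35 to 2.17) at passage 39, and H2afy, with 1.45 (1.39 to 1.52) and 1.40 (1.34 to 1.47). Lower in technical replicate 2 were Hist1h2bh, with 0.657 (0.542 to 0.794) and 0.641 (0.531 to 0.773), and H2afx, with 0.798 (0.758 to 0.840) and 0.777 (0.738 to 0.818). These 4 genes kept their direction under both other scalings of the libraries. The median log2 difference of all genes between the technical replicates was 0.10, and scaling by the median ratio moved it by -0.098 and scaling to a common sum by -0.13. Over all genes the interval then lay above 1 at both passages for 26.4% and 22.7%, and below 1 for 30.5% and 33.8%. The rescaled counts were added after the data were seen.

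Hist1h4b, with ratios of 1.56 (1.34 to 1.83) and 1.20 (1.03 to 1.40), and Hist1h2bk, with 1.47 (1.01 to 2.17) and 1.71 (1.15 to 2.59), also lay above 1 as deposited, as did H2afz, with 1.08 (1.04 to 1.12) and 1.17 (1.13 to 1.22), and H3f3b, with 1.08 (1.05 to 1.10) and 1.07 (1.05 to 1.10). None of these 4 did so under the other scalings, and the interval of H3f3b lay below 1 at both passages after scaling to a common sum. H1f0 and H1fx passed below 1 at both passages only after rescaling. The pairs thus ran in both directions within one family, with Hist3h2ba higher and Hist1h2bh lower among the H2B genes, and H2afy higher and H2afx lower among the H2A variants. Over all detected genes the median log2 difference was -0.040 for the 8 clustered and -0.095 for the 7 variant genes. Relative to the median of genes of similar length it was -0.25 and -0.17. On that scale H2afy was at 0.53 and Hist3h2ba at 0.29, and H2afx was at -0.57 and Hist1h2bh at -0.76. The summed Schwann cell markers, which were lower in the second technical replicates, moved with the same split, and their part in these ratios was not tested. The library number and any difference between the cells in the libraries cannot be told apart.

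**Figure D4:**
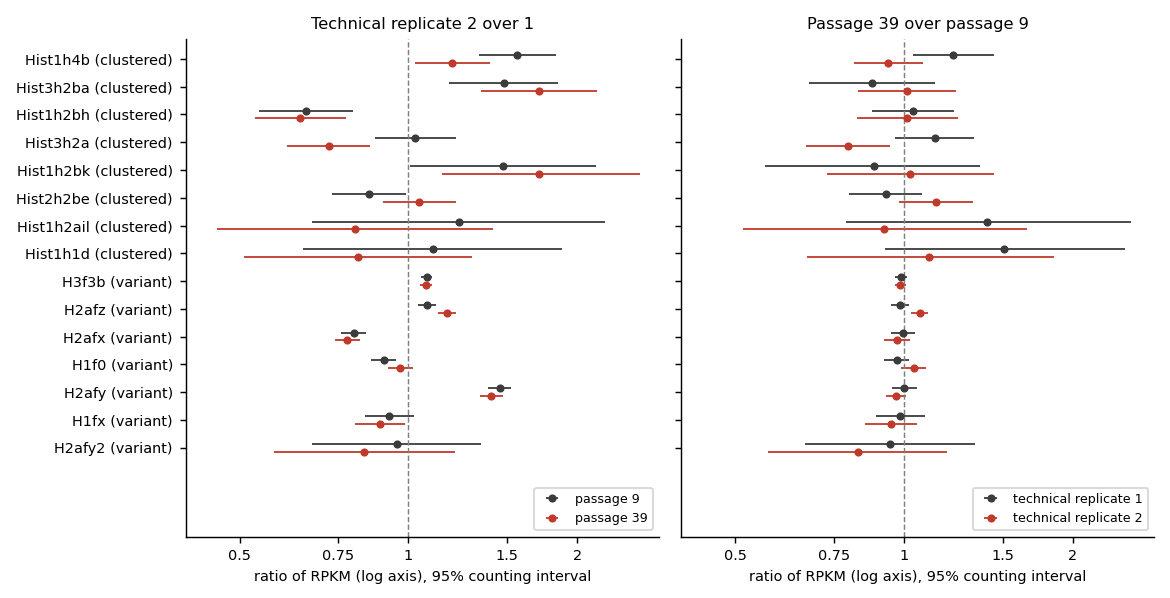
Ratios of RPKM (points, log axis) with exact 95% counting intervals (lines) for the 15 histone genes above 1 RPKM. On the left is technical replicate 2 over 1 at passage 9 (black) and passage 39 (red), where Hist3h2ba and H2afy lay above 1 and Hist1h2bh and H2afx below 1 at both passages, and on the right passage 39 over passage 9 in technical replicates 1 (black) and 2 (red), where no gene lay past 1 in both.

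Between the passages, no histone gene differed by 2-fold, where 0.00907% of all genes did. No histone gene had an interval past 1 in the same direction in both technical replicates, against 0.172% of all genes that were higher and 0.272% that were lower at passage 39. For 12 of the 15 detected genes the interval held 1 in both technical replicates, and for 3 it lay past 1 in 1 of them only. These were Hist1h4b, at 1.23 (1.04 to 1.45) in technical replicate 1 and 0.938 (0.814 to 1.08) in technical replicate 2, Hist3h2a, at 1.14 (0.965 to 1.34) and 0.795 (0.668 to 0.946), and H2afz, at 0.984 (0.947 to 1.02) and 1.07 (1.03 to 1.11). In each of them the ratios of the technical replicates pointed in opposite directions. The ratios of all 15 genes lay between 0.795 (Hist3h2a) and 1.51 (Hist1h1d, 0.925 to 2.48). The intervals for H3f3b, at 0.988 (0.965 to 1.01) and 0.985 (0.962 to 1.01), kept any difference between these libraries within a few percent, whereas for Hist1h2ail, at 1.41 (0.788 to 2.54) and 0.923 (0.515 to 1.66), the depth could not show a difference of 1.5-fold. The median log2 difference was 0.032 for the clustered, -0.020 for the variant and -0.0021 for all genes.

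The libraries also held genes that act on histone mRNA or accompany its synthesis. All 32 replication genes were detected, with a median of 35.2 RPKM, against 8 of 32 clustered histone genes and 35.9% of all listed genes. Pcna, the sliding clamp of replication, was at 264, 282, 262 and 288 RPKM and Mki67, a gene of cycling cells, at 67.8, 37.7, 65.4 and 37.9 RPKM. Of 23 genes of histone mRNA synthesis and processing 21 were found in the files and 19 detected, with a median of 12.3 RPKM over the 21. Not detected were Pou2f1, the gene of OCT1, at a mean of 0.926 RPKM, and Zfp473, at a mean of 0.0785 RPKM. Slbp, whose protein binds the stem-loop, was at 33.2, 32.7, 32.4 and 33.5 RPKM, and Eri1, a nuclease that trims histone mRNA, at 26.6, 28.5, 27.0 and 29.0 RPKM. Npat, the activator of the clustered genes, was at 7.22, 5.41, 7.21 and 5.26 RPKM, and Casp8ap2 (FLASH), at 8.19, 6.96, 8.15 and 7.18 RPKM. Lsm10 and Lsm11, of the U7 particle that cuts the 3′ end, were at 5.19, 7.53, 5.70 and 6.99 RPKM and at 4.22, 4.36, 4.40 and 4.19 RPKM. Slbp and Eri1 were thus above every clustered histone gene in every library, while Lsm11 was below the highest of them.

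Of the histone chaperones, 23 of 24 were detected, where 35.9% of all listed genes were, with a median of 13.0 RPKM. Cenpa, the H3 variant of centromeres, which the symbol rule does not cover, was at 7.19, 5.48, 7.90 and 5.65 RPKM. Hjurp, which loads it, was at 8.46, 5.13, 8.16 and 4.97 RPKM. Both were lower in technical replicate 2 at both passages, and Hjurp was the only chaperone past 1.5-fold at both, where 2.78% of all genes were lower and 2.22% higher. Of the replication genes only Mki67 and Top2a, at 144.9, 90.6, 142.2 and 92.0 RPKM, were lower by 1.5-fold at both passages and none was higher, and no gene of histone mRNA processing passed in either direction. By the interval of the ratio, 11 replication genes were higher and 12 lower in technical replicate 2, 8 and 3 of the processing genes, and 6 and 8 of the chaperones, where 41.6% of all genes were higher and 21.6% lower. No gene of these lists had an interval past 1 between the passages in both technical replicates.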

How the data were processed

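Poly(A) RNA of 2 unmodified S16 populations was sequenced in 4 libraries. TruSeq libraries were read as 50 bp single ends, aligned to rat rn5 with STAR and, for uniquely mapped reads, counted per gene by HTSeq in unstranded mode, as the labels and the study's methods state. What the authors deposited were RPKM values, 1 per gene symbol. The methods name an Ensembl reference, whereas the deposited tables are named for RefSeq, and the gene models and totals used for RPKM are not given in the sources used here.

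Totals, gene lengths and whole reads were recovered from ratios of the RPKM values (Python 3.11.15, numpy 2.4.6, pandas 2.3.3, scipy 1.17.1), with the smallest whole numbers that fit. The recovery was tested on simulated data. Differences were taken on the log2(RPKM + 1) scale, which understates changes of low genes, over genes that averaged 1 RPKM or more. The recovered totals of 34.2 to 41.4 M reads, on which the precision rests, were above the number of reads per cell line in the study's methods, a difference that was not resolved. Intervals are exact and cover counting error only. No p-values were computed, since by the labels each passage is 1 population and its libraries are technical replicates. Genes and lists were chosen with earlier results of these data known. Values in every library are given for the 12 clustered and 12 variant genes with the highest mean and for genes past a 1.5-fold or 2-fold limit, and other genes by name or range. The symbols of 2 listed processing genes, Srrt and Ncbp2, were not matched. Alternatives were 2 scalings, a pseudocount of 0.1 RPKM, other minimums, a correction for length in 20 bins, and each library left out. RefSeq tables of GRCr8 gave names, neighbours and promoters only.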

Additional observations from a re-analysis of the deposited data

Results flagged for a closer look

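For 4 detected clustered genes the difference between technical replicates 2 and 1, on the log2(RPKM + 1) scale, pointed in opposite directions at the 2 passages, with 1 pair of libraries each, and this difference between the passages was not tested. It was 0.080 at passage 9 and -0.18 at passage 39 for Hist1h1d, 0.18 and -0.20 for Hist1h2ail, -0.18 and 0.051 for Hist2h2be, and 0.034 and -0.39 for Hist3h2a. For Hist1h1d and Hist1h2ail the 95% interval of the ratio held 1 at both passages, at 0.649 to 1.88 and 0.509 to 1.30 for Hist1h1d and at 0.673 to 2.25 and 0.456 to 1.42 for Hist1h2ail. For Hist2h2be it held 1 at passage 39 only, and for Hist3h2a at passage 9 only. The first 2 genes rested on 24 to 40 reads in each library.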

How the results depend on the processing

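Detected clustered genes numbered 8, but 23 at a limit of 0.1 RPKM, 3 at a limit of 5 RPKM and 13 after scaling to a common sum of 1000000, which by its construction lowers the limit to 0.332 RPKM as deposited. The clustered share of the summed histone RPKM, 7.06%, was 5.13% as a share of reads and 5.94% without Hist1h4b, and lay between 6.99% and 7.17% with each library left out. No histone gene was lower in technical replicate 2 by 1.5-fold at both passages, but 1 was (Hist1h2bh) after scaling to a common sum, scaling by the median ratio, relative to genes of similar length and when 0.1 RPKM was the pseudocount. The number higher by 1.5-fold, 0, was between 0 and 2 with each library left out, with 2 without either library of passage 9, when the passage 39 pair alone was counted and not both passages. Intervals above 1 at both passages numbered 6, and 2 under each other scaling; those below 1 numbered 2, and 4 by the median ratio and 5 by the common sum, where the shares of all genes below 1 were 21.6%, 30.5% and 33.8%, and those above 1 were 41.6%, 26.4% and 22.7%. These interval counts were tried under other scalings after the data were seen.

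The median log2 difference between technical replicates, -0.040 for clustered genes, was 0.39 with a minimum of 5 RPKM (3 genes), -0.25 relative to genes of similar length and between -0.093 and 0.13 with each library left out, the highest without passage 39 technical replicate 1. For variant genes, at -0.095, it was -0.14 by the common sum, -0.17 by the median ratio, 0 with no filter, 0.0051 at 5 RPKM or more, -0.17 relative to genes of similar length and between -0.12 and -0.018 with each library left out. The median between passages was between -0.015 and 0.21 for clustered and between -0.065 and -0.017 for variant genes with each library left out, and 0 for variant genes with no filter. The value of 0.21 was without passage 9 technical replicate 2. The cause was not tested for any of these, except that fewer or more genes enter under another minimum or a lowered limit, and fewer pairs with a library left out. The counts of 2-fold differences, 0 in both comparisons, were 0 under every alternative run. No paired analysis was possible because no result comes from a test in which the replicate number could be a block. Ratios were taken within each passage and each number.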
